A study of Arabidopsis thaliana with 20 samples.

Results

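The chloroplast-encoded genes of Arabidopsis thaliana were followed in laser-captured root cells on an expression array. A probe set was included when the array's probe-to-gene annotation lists it with a single gene of the plastid chromosome. The rule uses no measured value, and it gave 69 of the 22746 gene probe sets of the array, each for a different gene. Of these, 67 passed the filter on low signals that left 14652 probe sets for testing. The genes fall into photosystem II (15), the NDH complex (10), the small (8) and large (7) subunits of the plastid ribosome, the cytochrome b6f complex (6), the ATP synthase (6), photosystem I (5), the plastid RNA polymerase (4), the photosystem I assembly factors ycf3 and ycf4, the large subunit of Rubisco (1) and 5 others (accD, clpP, ccsA, matK and cemA).

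Seedlings of the Columbia ecotype, grown for 3 weeks, each received 1000 juveniles of Meloidogyne incognita, a root-knot nematode, and root cells were captured 21 days later. Giant cells are enlarged and multinucleate, form in the vascular tissue around the worm's head, and are what it feeds on. Control cells came from parts of the same infested roots without nematodes, so every sample is from an infested plant and there is no uninfected group. About 80 giant cells went into 1 sample, with an area of 5000000 square micrometres, and about 150 control cells, with 13000000, so cell type and captured amount cannot be told apart. RNA was amplified either with the WT-Ovation Pico kit, after isolation on a spin column, or with the WT-Ovation One-Direct kit, straight from lysed cells. Kit and isolation step cannot be told apart, and "kit" stands for both. The 4 groups (control and giant cells with each kit) have 3 biological samples each. In each group 1 of these was split over 3 technical arrays, which were averaged, so n = 3 per group and 20 arrays in all. The labels do not tie samples to plants, so the p-values cover the spread among these samples alone, which may be technical in part.

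The plastid genome keeps a small set of genes from the cyanobacterial ancestor of the chloroplast. They code for core subunits of the photosynthetic complexes and for parts of the machinery that transcribes and translates them, while most plastid proteins are made from nuclear genes and imported. Many plastid genes are transcribed together in long units, by a bacterial-type polymerase whose core is plastid-encoded and by a phage-type polymerase encoded in the nucleus. Roots hold non-green plastids with the same genome, which make starch, amino acids and fatty acids and carry out little or no photosynthesis.

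Values are log2(signal + 16) of the deposited array signal, in which all arrays share a trimmed mean of about 500. A difference is the giant minus the control mean, or the One-Direct minus the Pico mean, on this scale. It is relative to the array, so fewer plastids per cell, less RNA per plastid and more RNA of other genes cannot be told apart. A difference was called when limma's adjusted p, over all 14652 probe sets tested, was under 0.05. Probe sets differ in how strongly they bind, so their signals are not compared as amounts. Median array signals ran from 166.5 to 311.3. Control One-Direct sample 1 stood apart: over all probe sets its correlations within the group were 0.741 and 0.690, against 0.851 between samples 2 and 3, and over the 69 members at 0.921 and 0.918 against 0.985. Signals of the lists of root cell type markers could not be read, since 0 of 21 genes had a probe set of their own in the annotation.

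Plastid genes gave bright signals in root cells of every group. The median over the 69 probe sets lay between the 93.9 and 97.9 percentile of the array in the 12 samples, and together they made up 1.43% to 2.04% of the summed signal. Averaged over samples, the 67 tested members had a median of 11.48 log2 units, against 8.67 for all tested probe sets, and the dimmest of them lay at 8.45. Of the 67, 65 were above the array median in all 12 samples, petL in 11 and psbM in 10. The 2 members that failed the filter were psbT, a small photosystem II subunit, and ndhF, an NDH subunit. Both were below the median in all 12 samples, psbT between 5.52 and 7.09 and ndhF between 5.78 and 7.06.

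**Figure D1:**
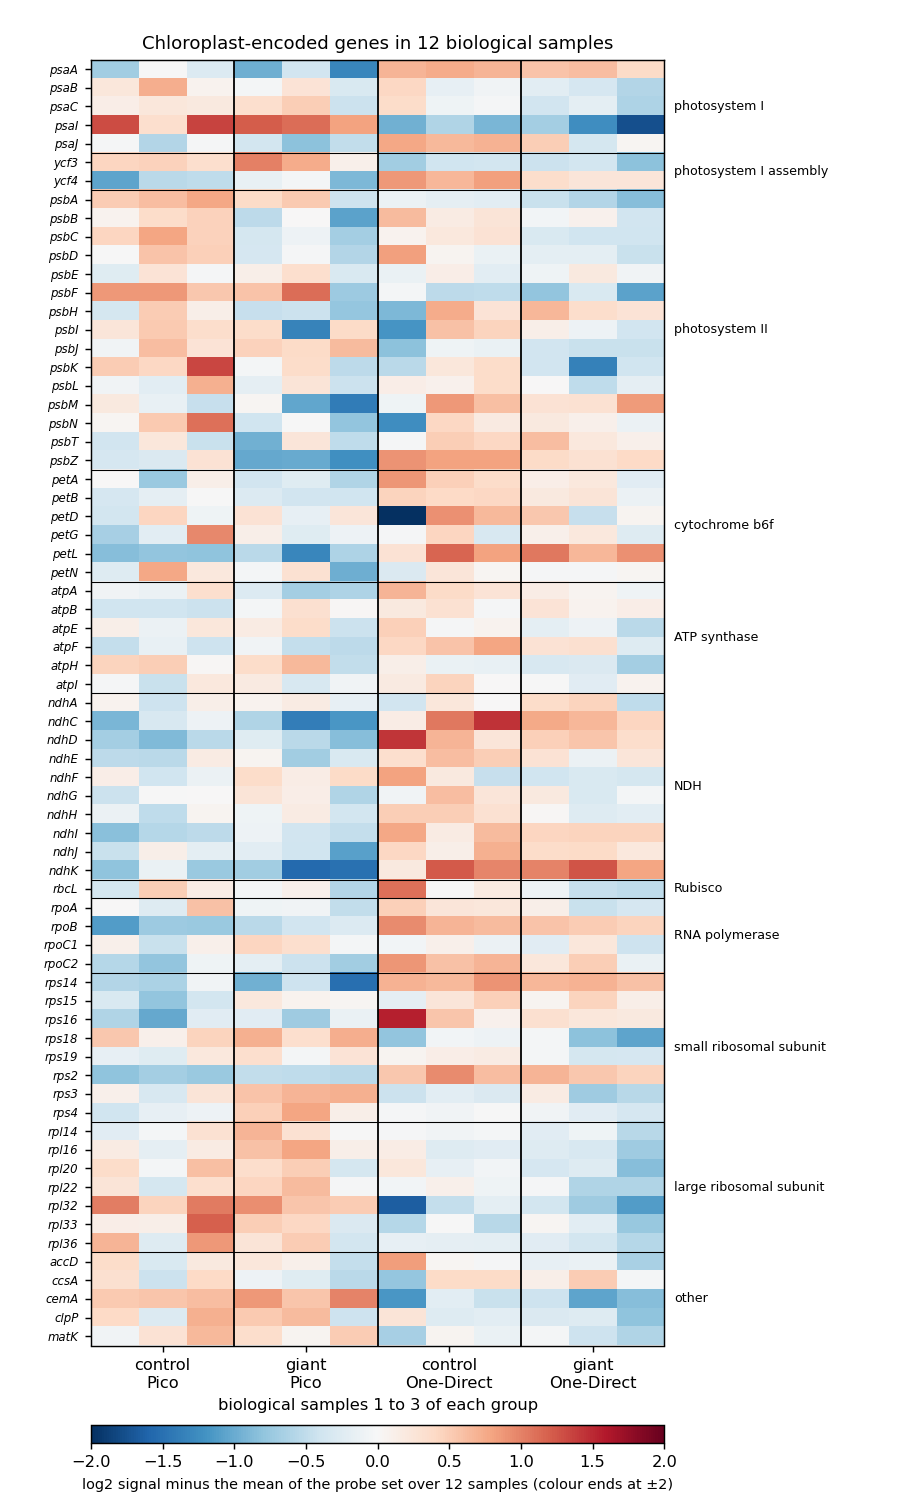
Colour shows the log2 signal of each of the 69 chloroplast-encoded genes (rows, grouped by complex) in the 12 biological samples (columns), minus that gene's mean over the samples; blue is lower and red is higher. The columns differ most between the Pico samples on the left and the One-Direct samples on the right, in both directions, and psbB, psbC, psbD and psbZ are bluer in the giant than in the control samples of the Pico kit.

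Giant and control cells were first compared over both kits together, to ask which plastid genes differ in the feeding cells. Of the 67 tested members 2 were called, and both were lower in giant cells: psbC and psbZ, neighbouring genes of photosystem II. This is 2.99% of the members, against 19.6% of all tested probe sets (10.5% called higher and 9.04% lower). At an unadjusted p under 0.05 there were 6 members, all lower, against 34.5% of all tested probe sets in either direction. The plastid genes as a whole lay on the low side: 50 of 67 had a difference below 0, with a median of -0.20 against 0.24 for all tested probe sets, and 63 of 67 lay below that median. The sign of the members' median depends on the scaling of the arrays. It was 0.03 with quantile normalisation, where all tested probe sets had 0.17, and -0.41 with each array centred on its median, where they had 0.03. The median 95% interval of a single member was 0.54 wide to each side, so differences under about that size were not resolved.

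Photosystem II splits water and passes electrons to plastoquinone. Its median difference was -0.37 over 14 tested genes, 12 of them below 0, and it stayed below 0 with quantile normalisation (-0.27) and median centring (-0.58). The psbC gene (ArthCp018) codes for CP43, an inner antenna protein. Its signals with the Pico kit were 12.83, 13.20 and 12.87 in control cells and 12.05, 12.31 and 11.72 in giant cells. With One-Direct they were 12.48, 12.61 and 12.69 in control cells and 12.10, 12.01 and 12.01 in giant cells. All giant cell samples lay below all control samples within each kit. The signal was 1.68-fold lower in giant cells (log2 difference -0.75, SE 0.22, limma adjusted p = 0.0321).

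The psbZ gene (ArthCp019) codes for a small membrane subunit of the photosystem II core. Pico control samples had 10.04, 10.09 and 10.66, and giant cell samples 9.35, 9.36 and 9.15. One-Direct control samples had 11.27, 11.19 and 11.18, and giant cell samples 10.76, 10.67 and 10.77. Giant and control samples did not overlap within either kit, although the kits themselves lay 1.20 apart. The fall was 1.65-fold (log2 difference -0.72, SE 0.22, limma adjusted p = 0.0362).

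Both calls stood near the threshold and rested on single samples. Neither gene was called without giant One-Direct sample 2 or 3, without any 1 of the 3 control Pico samples, or without giant Pico sample 1 or 3. Only psbC was called without giant One-Direct sample 1 or giant Pico sample 2, and psbK was called as well without control One-Direct sample 1. Their log2 differences kept the same sign in those fits, at -0.82 to -0.67 for psbC and -0.78 to -0.62 for psbZ. Both calls were also lost with quantile normalisation, where psbC had -0.41 (adjusted p = 0.257) and psbZ -0.60 (adjusted p = 0.0853), and with no filter on low signals.

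The other large photosystem II differences did not pass the test. The largest belonged to psbK (-0.78, SE 0.30, limma adjusted p = 0.0898), which codes for a small core subunit. Its signals were 12.87, 12.77 and 13.69 in Pico control cells and 12.31, 12.73 and 11.84 in Pico giant cells. In One-Direct they were 11.82, 12.58 and 12.73 against 11.97, 11.00 and 11.95, and control sample 1 fell within the range of the giant cells. The psbB gene for CP47, the other inner antenna protein, had -0.65 (adjusted p = 0.0891), and psbD for the D2 reaction centre protein had -0.59 (adjusted p = 0.12). For psbA, which codes for the D1 reaction centre protein, the difference was -0.46 (adjusted p = 0.19). The brightest photosystem II probe set, that of the cytochrome b559 gene psbF, had -0.40 (SE 0.32) and 0.03 with quantile normalisation. Its Pico samples ran from 14.29 to 14.62 in control and from 13.02 to 14.86 in giant cells, the widest spread within giant cells among the brightest genes of the complexes. The 2 photosystem II genes above 0 were psbE and psbJ, at 0.07 each.

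The other photosynthetic complexes held no called gene between giant and control cells. All 5 photosystem I genes were below 0 (median -0.37, and -0.06 with quantile normalisation). The largest was psaJ, a small subunit, at -0.50 (SE 0.24, limma adjusted p = 0.164). The brightest, psaB, codes for a reaction centre protein. Its Pico signals were 13.22, 13.72 and 13.07 in control and 12.95, 13.26 and 12.69 in giant cells, which overlap, and its One-Direct signals were 13.40, 12.84 and 12.92 against 12.78, 12.65 and 12.41, which do not. Its difference was -0.40 (adjusted p = 0.255). The assembly factors ycf3 and ycf4 had 0.07 and -0.08. These signs turned with the setting: ycf3 was at -0.13 with median centring and ycf4 at 0.08 with quantile normalisation.

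The rbcL gene for the large subunit of Rubisco, the carbon-fixing enzyme, had -0.53 (SE 0.28, adjusted p = 0.196). Its control signals were 12.35, 13.19 and 12.85 with Pico and 13.79, 12.71 and 12.87 with One-Direct. In giant cells they were 12.66, 12.79 and 12.11 with Pico and 12.60, 12.24 and 12.19 with One-Direct. The Pico groups overlapped and the One-Direct groups did not. The highest of the 12 values was that of control One-Direct sample 1.

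In the ATP synthase, 5 of 6 genes were below 0 (median -0.24, and 0.06 with quantile normalisation). The largest difference was that of atpA, the alpha subunit of the catalytic head, at -0.49 (SE 0.22, adjusted p = 0.14). The atpB gene for the beta subunit of the same head went the other way, at 0.26 (adjusted p = 0.416), and kept that sign with both other scalings. The brightest gene, atpH for the membrane ring subunit, had 13.63, 13.68 and 13.21 in Pico control cells and 13.56, 13.84 and 12.69 in Pico giant cells. With One-Direct it had 13.30, 13.05 and 13.05 in control and 12.86, 12.91 and 12.50 in giant cells. The difference of atpH was -0.26 (adjusted p = 0.508), and 0.11 with quantile normalisation.

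The cytochrome b6f complex links the photosystems, and the NDH complex feeds electrons back into that chain. The cytochrome b6f genes had a median of -0.15 (0.01 with quantile normalisation). The largest of them was petA for cytochrome f at -0.37 (adjusted p = 0.316), and the brightest, petB for cytochrome b6, had -0.24 (adjusted p = 0.454) and 0.06 with quantile normalisation. For petB the One-Direct control samples (12.53, 12.48 and 12.50) lay above the One-Direct giant cell samples (12.27, 12.34 and 11.96). The petD gene had the widest spread, since control One-Direct sample 1 was at 8.07 and the other control samples at 11.01 and 10.75. The 9 tested NDH genes had a median of -0.18 (-0.08 with quantile normalisation), with 7 below 0. The largest was ndhC at -0.43 (adjusted p = 0.311). The brightest NDH gene, ndhE, had -0.18 (adjusted p = 0.642) and 0.07 with quantile normalisation.

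Genes for plastid gene expression had a higher median difference than those for photosynthesis. The 20 tested genes of the RNA polymerase, the ribosome and matK, a maturase for intron splicing, had a median of -0.05, with 12 below 0 and 8 above. The 43 tested photosynthesis genes had -0.25, with 35 below 0. The medians were 0.20 and -0.07 with quantile normalisation, and -0.26 and -0.45 with median centring. The order of the 2 medians was the same with all 3 scalings, and no test was made of the difference between the lists. Polymerase subunit gene rpoA had -0.43 (SE 0.24, adjusted p = 0.229), the largest of the RNA polymerase, while rpoB had 0.12 and rpoC1 0.10. Pico signals of rpoA were 12.38, 12.12 and 12.96 in control and 12.29, 12.31 and 11.88 in giant cells. Its One-Direct signals were 12.84, 12.61 and 12.61 against 12.49, 11.93 and 12.04, without overlap.

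Ribosomal protein genes split about evenly. In the small subunit 4 of 8 were above 0, and the largest difference was that of rps14 at -0.32 (adjusted p = 0.394). The brightest small subunit gene, rps4, had 0.25 (adjusted p = 0.448), with rps15 at 0.31 and rps3 at 0.29. In the large subunit 5 of 7 were below 0 (median -0.06), but all 7 were above 0 with quantile normalisation (median 0.20). The largest there was rpl20 at -0.32 (adjusted p = 0.407), and the brightest was rpl36 at -0.25 (adjusted p = 0.537). Of the other genes, accD for a subunit of the acetyl-CoA carboxylase of fatty acid synthesis had -0.37 (adjusted p = 0.35). The clpP gene for the proteolytic subunit of the Clp protease had -0.20 (adjusted p = 0.643), and 0.18 with quantile normalisation.

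**Figure D2:**
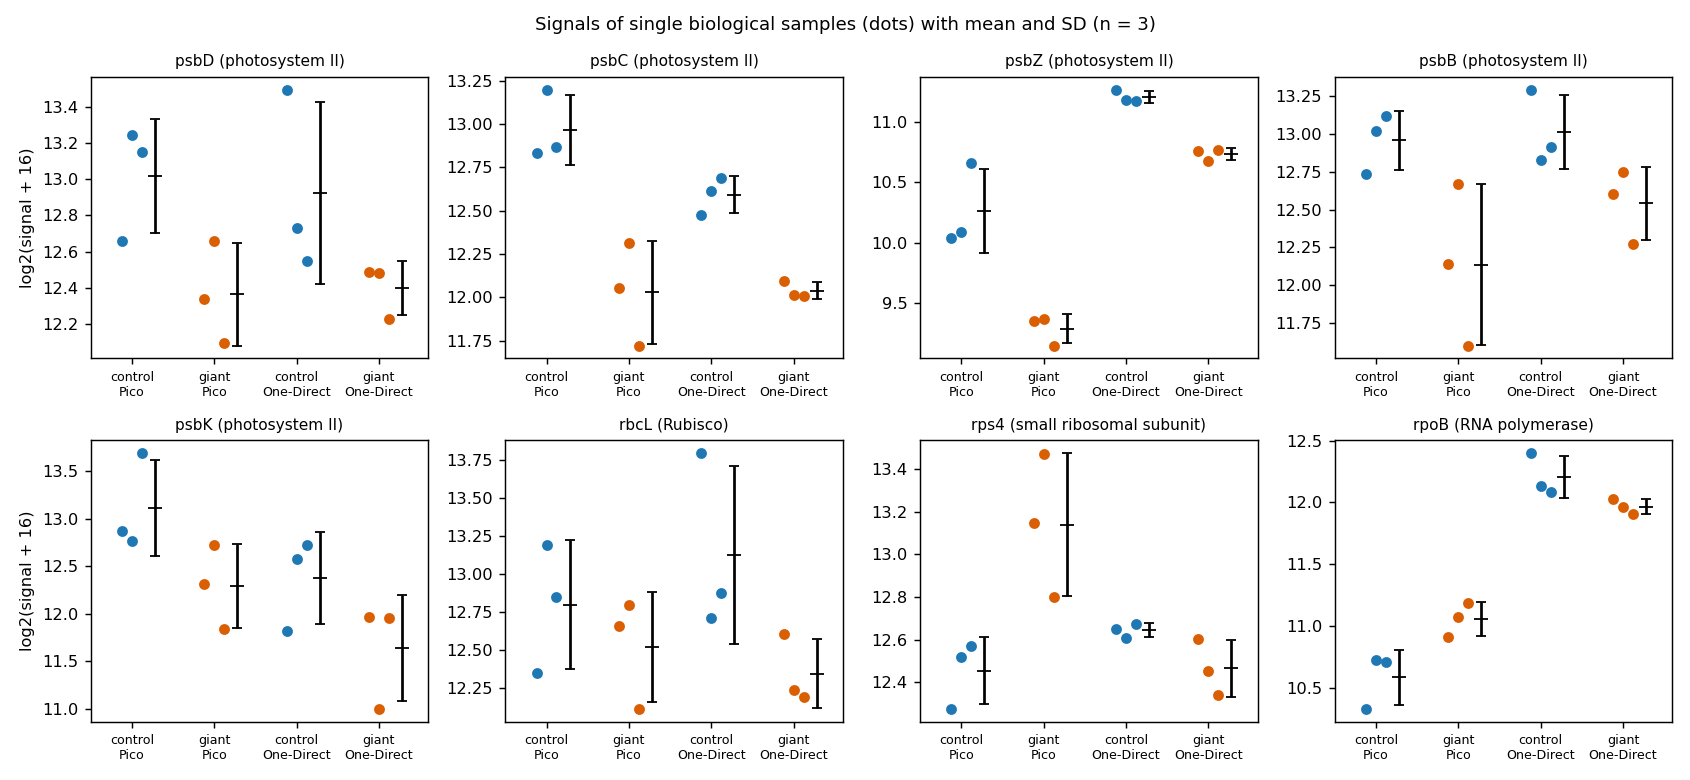
Each panel plots the log2(signal + 16) of 1 gene in the single biological samples of the 4 groups (dots; blue for control and orange for giant cells), with the mean and SD of 3 samples beside them; the vertical axes differ between panels. Values are those of the main fit, without quantile normalisation or median centring. For psbC and psbZ the giant cell dots lie below the control dots within each kit. The means of rps4 and rpoB are higher in giant cells with Pico and lower with One-Direct. The genes psbD, psbB and rpoB were chosen for the plot after their values were seen.

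Within the Pico kit no member was called between giant and control cells, against 9.49% of all tested probe sets (2.43% higher, 7.06% lower). At an unadjusted p under 0.05 there were 4, against 22.3% of all. The lowest adjusted p were those of psbZ (-0.97, adjusted p = 0.0717) and psbC (-0.94, adjusted p = 0.0827). The median over members was -0.06, against 0.16 for all, and it changed sign when some single samples were left out (-0.19 to 0.07). The complexes parted in this kit. Photosystem II had a median of -0.65 with 12 of 14 below 0, and photosystem I had -0.35 with 4 of 5 below 0. The small ribosomal subunit had 0.26 with 7 of 8 above 0. Each of these 3 medians kept its sign with quantile normalisation (-0.58, -0.18 and 0.24) and with median centring (-0.57, -0.27 and 0.33).

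Giant and control samples of the Pico kit did not overlap for 15 of the 67 members (22.4%), against 42.5% of all tested probe sets. In 8 of them (11.9%) giant cells were lower, against 17.5% of all tested probe sets. These were psbB, psbC, psbD, psbH, psbK, psbN, psbZ and atpA, so 7 of the 8 are in the photosystem II group. That group takes in every member with a psb symbol, psbN included. In 7 members (10.4%) giant cells were higher, against 25.0% of all. These were rps2, rps3, rps4, rps15, rpoB, atpB and ndhI, of which 5 serve gene expression. The members' shares were below those of all tested probe sets in both directions.

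The signals of rps4, a primary binder of the small ribosomal RNA in bacteria, were 12.28, 12.52 and 12.57 in Pico control cells and 13.15, 13.47 and 12.80 in Pico giant cells. The difference was 0.68 (SE 0.31, limma adjusted p = 0.22). With One-Direct the same gene had 12.65, 12.61 and 12.67 in control and 12.61, 12.45 and 12.34 in giant cells, a difference of -0.18 (adjusted p = 0.76). In the main fit the kits thus placed giant cells on opposite sides of control cells for rps4, but the difference between the kits was not called (-0.86, SE 0.44, adjusted p = 0.593). The One-Direct side depended on the scaling for the small ribosomal subunit. Its One-Direct median was -0.17 in the main fit, with 1 of 8 genes above 0. With quantile normalisation it was 0.29, with 6 of 8 above 0. Over both kits rps4 ran from 0.05 to 0.56 across the alternative settings. Other genes with large Pico differences were psbN (-0.95), psbB (-0.82), psbK (-0.82), rps3 (0.64), rps15 (0.60), atpB (0.51) and rpoB (0.47). None of these passed the test, with adjusted p from 0.191 for psbB to 0.406 for rpoB.

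The count of calls in Pico depends on how the spread was estimated. With the 6 Pico samples alone in the fit, psbC (adjusted p = 0.0398) and psbZ (adjusted p = 0.0364) were called lower, with 20.9% of all tested probe sets called and 11.8% called lower. Both were called too without control One-Direct sample 1, where 16.3% of all were. With sample quality weights there were 6 calls, against 28.0% of all tested probe sets. They were rps4, which was higher (13.4% of all), and psbB, psbC, psbD, psbN and psbZ, which were lower (14.6% of all).

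**Figure D3:**
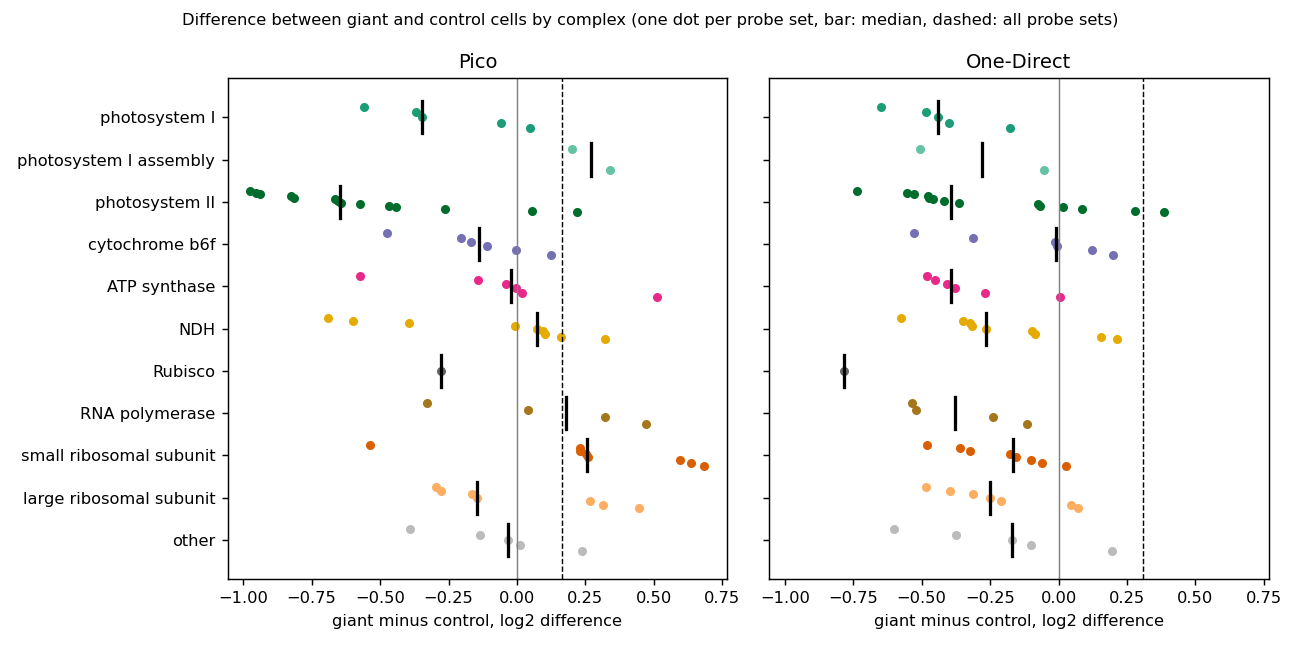
Dots give the giant minus control log2 difference of single genes by complex, with Pico on the left and One-Direct on the right; black bars are the medians of the complexes and the dashed line is the median of all tested probe sets (0.16 and 0.31). With Pico the photosystem II genes reach from -0.97 to 0.22 and most small ribosomal subunit genes lie above 0; with One-Direct 54 of 67 genes lie below 0, but 24 do with quantile normalisation.

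Within the One-Direct kit 0 members were called, against 5.64% of all tested probe sets. With only the One-Direct samples in the fit, 0 of the 14652 probe sets were called. At an unadjusted p under 0.05 there were 0 members, against 24.6% of all. The 54 of 67 members below 0 gave a median of -0.31, against 0.31 for all. Every complex had a median below 0, from -0.78 for rbcL and -0.44 for photosystem I to -0.01 for cytochrome b6f. With quantile normalisation these medians were above 0 for all but photosystem II (-0.01) and rbcL (-0.25), and that of all members was 0.11. The median was -0.34 without the first sample of both One-Direct groups. The lowest adjusted p was 0.241, for rbcL.

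In 30 of the 67 members (44.8%) all One-Direct giant cell samples lay below all One-Direct control samples, against 6.81% of all tested probe sets. In 0 members they lay above, against 14.6% of all. These counts turned with the scaling. Quantile normalisation gave 4 members below and 7 above, against 8.05% and 11.1% of all probe sets, and median centring gave 44 below and 0 above, against 13.8% and 6.03%. The 30 genes came from photosystem II (psbA, psbB, psbC, psbD, psbL, psbZ), photosystem I (psaA, psaB, psaC, psaJ), the ATP synthase (atpA, atpE, atpF, atpH), the ribosome (rps4, rps19, rpl14, rpl16, rpl20, rpl36) and the polymerase (rpoA, rpoB, rpoC2). The remaining 7 were ndhE, ndhH, petA, petB, ycf4, rbcL and accD. The plastid share of the summed signal was 1.94% to 2.04% in the One-Direct control samples and 1.51% to 1.82% in the giant cell samples, which do not overlap. In the Pico samples it was 1.79% to 2.02% in control and 1.43% to 2.02% in giant cells.

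Giant samples lay below control samples in both kits for 5 of 67 members (7.46%), against 4.59% of all tested probe sets. They were psbB, psbC, psbD, psbZ and atpA. This count is that of the main fit. With quantile normalisation 4 members in all lay below in One-Direct, so the 5 cannot all hold there. Across the alternative settings the One-Direct difference ran from -1.04 to -0.05 for psbC and from -0.96 to -0.23 for psbZ. The number lying above in both kits was 0, against 7.47% of all. Across the 67 members the giant cell differences of the 2 kits correlated at r = 0.07, and 36 (53.7%) had the same sign. Across all tested probe sets r was 0.60 and 70.5% had the same sign. These correlations are across genes, which share samples and are not independent. With both kits together the giant cell differences of members ran from -0.78 to 0.31 and those of all tested probe sets from -5.18 to 4.28. A range widens with the number of values, so these 2 ranges do not compare the spread.

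The test of the difference between the kits called 0 of 67 members, against 0.0205% of all tested probe sets, and 0 had an unadjusted p under 0.05, against 9.19% of all. The median difference was -0.25 (One-Direct minus Pico), against 0.21 for all, and 0.11 with quantile normalisation. In the small ribosomal subunit 7 of 8 genes were below 0 (median -0.59), and in photosystem II 12 of 14 genes were above 0 (median 0.24). The photosystem II median was close to the 0.21 of all tested probe sets, and 7 of its 14 genes lay below that value. Of the small ribosomal subunit genes 7 of 8 did. The medians of these 2 groups kept their signs with quantile normalisation (-0.23 and 0.38), but that of photosystem II was -0.32 with median centring. The largest difference between the kits above 0 was that of psbN (1.23, adjusted p = 0.606), and the largest below 0 was that of rps4 (-0.86). The median 95% interval reached 1.07 to each side here, so differences of about 2-fold between the kits were not resolved for single genes.

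Measures of the arrays themselves also differed between the groups. The log2 ratio of the 3' to the 5' probe set of GAPDH with One-Direct was 3.36 ± 0.92 (SD, n = 3) for control and 2.24 ± 0.18 for giant cells, and with Pico 2.33 ± 0.20 and 1.20 ± 0.16. The same ratio for actin was 3.01 ± 0.28 and 2.56 ± 0.17 with One-Direct, and 3.05 ± 0.32 and 3.25 ± 0.36 with Pico. For ubiquitin it was 2.78 ± 1.12 and 3.00 ± 0.17 with One-Direct, and 2.90 ± 0.14 and 2.67 ± 0.15 with Pico, so the ratios did not all move the same way. The log2 signal of 25S ribosomal RNA was 13.94 ± 0.50 and 13.23 ± 0.29 with One-Direct, and 16.05 ± 0.46 and 15.28 ± 0.99 with Pico. Their part in the differences of plastid genes was not tested. The giant Pico sample with the lowest 25S signal, sample 3 (14.15), also had the lowest plastid share of all 12 samples (1.43%).

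The kits themselves differed for many plastid genes, at a share near that of all tested probe sets. Between One-Direct and Pico, over both cell types, 26 of 67 members (38.8%) were called, against 34.3% of all tested probe sets. Of these 17 were higher with One-Direct and 9 lower, against 18.0% and 16.3% of all probe sets. Members on the 2 sides offset each other, with a median of -0.01 against -0.09 for all. The median was 0.44 with quantile normalisation, with 51 of 67 above 0, and -0.39 with median centring. Between 20 and 30 members were called under each of the alternative settings.

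The 5 largest rises with One-Direct came from 4 complexes. The ndhK gene, an NDH subunit that binds an iron-sulphur cluster, was 3.50-fold higher (log2 difference 1.81, limma adjusted p = 0.000243). Its Pico signals ran from 8.68 to 10.09 and its One-Direct signals from 10.43 to 11.48, so the kits did not overlap. It was followed by petL, a small cytochrome b6f subunit (1.63), ndhC (1.49), rps14 (1.39) and rpoB, the beta subunit of the polymerase (1.26). The 12 other genes called higher were atpF, ndhD, ndhI, ndhJ, psaA, psaJ, psbM, psbZ, rpoC2, rps16, rps2 and ycf4.

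The largest fall was that of psaI, a small photosystem I subunit, which was 4.13-fold lower with One-Direct (log2 difference -2.04, adjusted p = 9.04e-05). Pico signals of psaI ran from 11.01 to 12.03 and One-Direct signals from 8.92 to 10.08. The other 4 were rpl32 (-1.50), cemA for a chloroplast envelope membrane protein (-1.38), psbF (-1.08) and ycf3 (-1.02). With quantile normalisation psbF had 0.02 and ycf3 -0.24, and neither was called. The remaining genes called lower were psbA, psbJ, rps18 and rps3.

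By complex, all 9 tested NDH genes were above 0 with One-Direct (median 0.74) and 5 were called higher. All 9 stayed above 0 with quantile normalisation and 6 did with median centring. All 7 large ribosomal subunit genes were below 0 (median -0.54), with rpl32 called, but 5 of them were above 0 with quantile normalisation. In other complexes genes went both ways. Photosystem I had psaA and psaJ called higher and psaI lower, and photosystem II had psbM and psbZ higher and psbA, psbF and psbJ lower. Of the assembly factors, ycf4 was higher and ycf3 lower, and the small ribosomal subunit had rps2, rps14 and rps16 higher and rps3 and rps18 lower.

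The kit differences were alike in the 2 cell types, which share no sample. In control and giant cells they correlated at r = 0.84 across the 67 members, and 51 had the same sign. These 2 values were not computed over all tested probe sets, so the likeness is not shown to be particular to plastid genes. In 23 members (34.3%) the samples of the kits did not overlap in either cell type and differed the same way, against 23.2% of all tested probe sets. The correlation is across genes that share the probe sequences, and is given without a test. Kit differences reached from -2.04 to 1.81 and were thus wider than giant cell differences for the same genes.

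**Figure D4:**
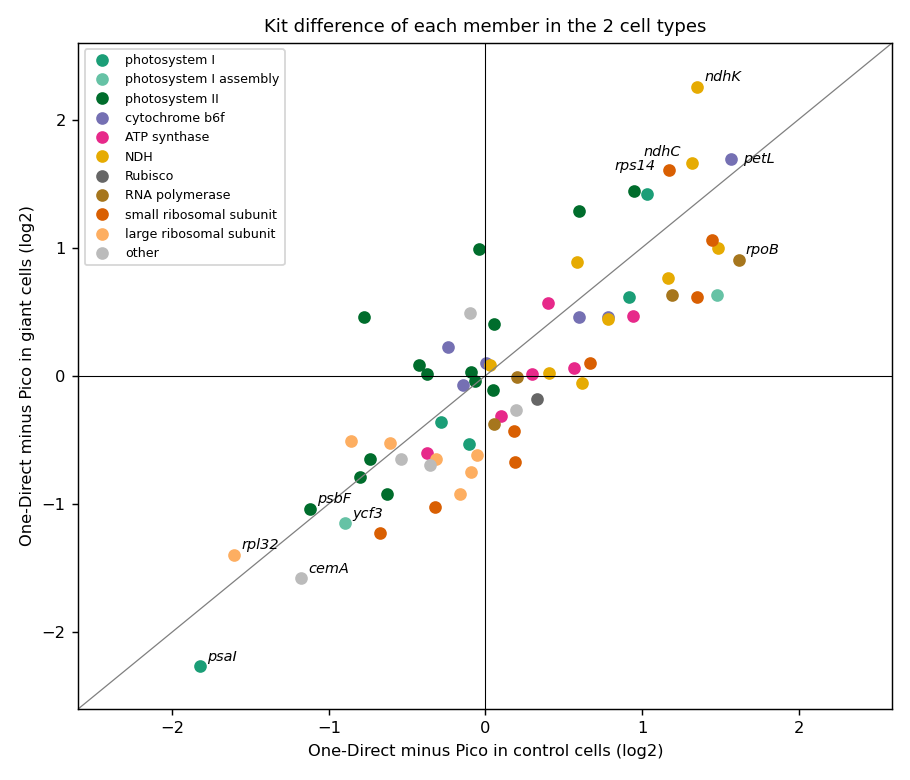
Each dot is 1 gene, with its One-Direct minus Pico log2 difference in control cells (horizontal) and in giant cells (vertical), coloured by complex; the grey line marks equal values. Dots follow the line from psaI at the lower left to ndhK at the upper right (r = 0.84), and photosystem I (psaI and 2 unlabelled dots of its colour, psaA and psaJ) stands on both sides of 0.

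Neighbours on the plastid genome had similar giant cell differences in the Pico kit but not similar kit differences. Over the 66 pairs of tested genes next to each other in RefSeq's gene order (assembly TAIR10.1), the Pico giant cell differences correlated at r = 0.49. Their median absolute gap was 0.24, against 0.40 over all 2211 pairs. Genes left out of the members were skipped, so some pairs, such as rps19 and rpl32, have other genes between them. Over both kits together r was 0.255 (median gap 0.189 against 0.245). For the One-Direct giant cell differences r was 0.01 (median gap 0.25 against 0.26), and for the kit differences it was -0.01 (0.77 against 0.77). Neighbouring genes often belong to 1 transcript and 1 complex, which the gene order does not separate.

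The psbD, psbC and psbZ genes form 1 transcription unit and had the lowest giant cell differences of the units with 3 or more tested genes. They ran from -0.97 to -0.65 with Pico and from -0.55 to -0.48 with One-Direct. The same 3 genes had kit differences from -0.18 to 1.20, with psbZ alone called. In the psaA, psaB and rps14 unit, which joins a ribosomal protein gene to photosystem I genes, giant cell differences over both kits ran from -0.40 to -0.32. That unit's kit differences ran from -0.32 to 1.39, with psaA and rps14 called. The rps14 gene was also the only small ribosomal subunit gene below 0 in Pico giant cells, at -0.54, close to psaA at -0.56 and psaB at -0.37.

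Other units were less even. The long ribosomal protein unit ending in rpoA (7 tested genes) had Pico giant cell differences from -0.33 for rpoA to 0.64 for rps3. In the psbB unit, psbB (-0.82) and psbH (-0.64) stood apart from petB (-0.17) and petD (0.12). The psbN gene, which is encoded on the opposite strand between psbT and psbH, had -0.95. The unit of rpoB, rpoC1 and rpoC2 had 0.04 to 0.47 with Pico and -0.52 to -0.12 with One-Direct, and the ndhC, ndhK and ndhJ unit had -0.69 to -0.39 and -0.26 to 0.21. These last 3 NDH genes were all called higher with One-Direct than with Pico (0.74 to 1.81).

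**Figure D5:**
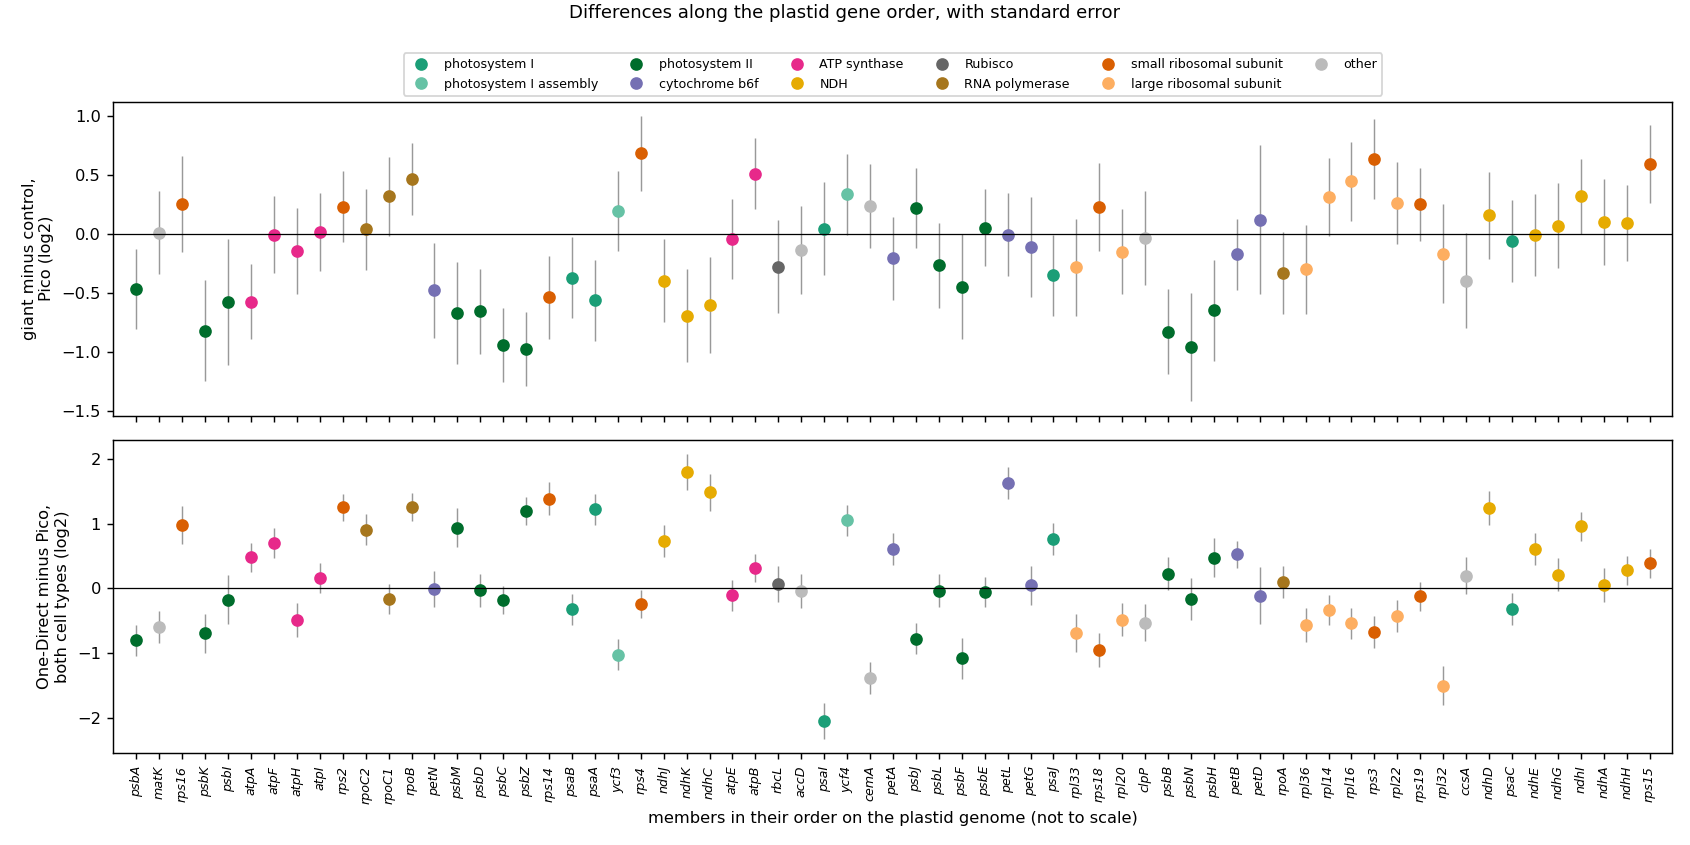
Tested genes stand in their order along the plastid genome (not to scale), with the giant minus control difference in Pico above and the One-Direct minus Pico difference over both cell types below (log2, bars show 1 standard error, colours show complexes). In the upper panel neighbours such as psbD, psbC and psbZ lie close together, while in the lower panel the adjacent psaI (-2.04) and ycf4 (1.05) lie far apart.

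Signals of plastid genes were repeatable between samples. The SD over biological samples used the first technical array of each, not the averaged values. The SD over technical arrays used the split sample of each group. In control cells with One-Direct, the median SD over 3 biological samples was 0.24 for members and 0.77 for all tested probe sets, and over 3 technical arrays it was 0.15 and 0.65. In giant cells with One-Direct these were 0.31 and 0.50, and 0.29 and 0.39. With Pico the biological SD was 0.29 and 0.39 in control cells, but 0.43 and 0.35 in giant cells, the only group in which members varied more than all probe sets. Members are brighter than most probe sets, and the part of brightness in these values was not tested. Giant Pico sample 3 was the lowest of its group for many bright members, such as psbF (13.02 against 14.32 and 14.86), ycf3 (13.17 against 14.08 and 13.82) and atpH (12.69 against 13.56 and 13.84). Over the 69 members, samples of 1 group correlated at a mean r of 0.94 to 0.98, giant with control samples of the same kit at 0.95 and 0.96, and samples of different kits at 0.84 to 0.86.

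The mitochondrion is the other organelle of the root cell with a genome of its own. Of 20 tested probe sets for its genes 0 were called between giant and control cells, against 19.6% of all tested probe sets, and 3 had an unadjusted p under 0.05, against 34.5% of all. Their differences had medians of -0.15 over both kits, 0.08 in Pico and -0.39 in One-Direct. Between the kits 3 were called higher, against 18.0% of all, and 5 lower, against 16.3%. Several of these probe sets are for the same gene. Nuclear photosynthesis genes could be read for 12 of 62 genes of the list, all 12 tested. Over both kits 10 of the 12 were above 0 in giant cells (median 0.78, against 0.24 for all). SBPASE, an enzyme of the Calvin cycle, was called higher (1.19, limma adjusted p = 0.0484). This call is 8.33% of the list, against 10.5% of all tested probe sets. Mean signals of SBPASE were low: 6.38 in One-Direct and 6.94 in Pico control cells, and 7.56 and 8.14 in giant cells. Its pass of the filter may rest on giant cell samples. All 12 lay above the array median in every giant Pico sample, but 7 did in every control Pico sample and 4 in each One-Direct group. The 12 probe sets held 0.0213% to 0.0379% of the summed signal in the One-Direct control samples and 0.0347% to 0.0526% in the One-Direct giant cell samples. With Pico these shares were 0.0261% to 0.0965% and 0.0469% to 0.0646%. Their part in the plastid values was not tested. With One-Direct 6 of the 12 were called lower than with Pico, against 16.3% of all tested probe sets, with a median of -1.13 against -0.09 for all.

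Nuclear genes for plastid upkeep were hardly represented. Of the list for plastid gene expression 1 gene, the Clp protease subunit gene CLPP4, could be read, and its difference in giant cells was 0.94 (adjusted p = 0.0641). The plastid division genes FTSZ2-1 and FTSZ2-2 had 0.18 (adjusted p = 0.69) and 0.55 (adjusted p = 0.357).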

How the data were processed

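The deposited table holds 1 linear signal intensity per probe set and array, 22810 probe sets by 20 arrays. The authors' deposited values come from Affymetrix Expression Console and from MAS5, per the submitters' processing notes; versions and scan batches were not given in sources used here. The 2% trimmed mean was 500 on every array, to which each was rescaled, and 0 arrays were identical to another. The 64 control probe sets served only for array measures.

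Signals were taken as log2(signal + 16), technical arrays were averaged, and a probe set was tested if it lay above its array's median in at least 3 of 12 biological samples. Means of the 4 groups were fitted with limma 3.58.1 (lmFit, eBayes) in R 4.3.3, on all 12 samples with 1 shared spread per probe set. Tests of the 5 contrasts were two-sided, p-values were adjusted by Benjamini-Hochberg across 14652 probe sets, and the threshold was 0.05. The fit was tested on simulated data.

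Of the gene probe sets, 13513 carry 1 gene in the array's annotation, 503 several and 8730 are not listed. Names and gene order come from RefSeq (TAIR10.1); no sequence or coordinate is given. Named genes are members called between giant and control cells, the brightest and the most different of each complex, the 5 largest called kit differences in each direction and members below the filter; others were chosen after their values were seen. Members and lists were chosen with earlier results of these data known. Alternatives were other pseudocounts, filters, scalings, technical arrays, weights, a replicate block, fits within 1 kit and each sample left out. Same-numbered samples of different groups deviated from their group means with r from -0.064 to 0.138. Between the control groups of the 2 kits these r were 0.138, 0.079 and 0.047, each the highest for its One-Direct sample. Such small values do not settle whether the numbers pair samples, and the main fit treated samples as unpaired. Precision is limited by the number of arrays.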

Additional observations from a re-analysis of the deposited data

How the results depend on the processing

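Of the counts of called members, those for One-Direct, for the difference between kits (both 0 throughout) and for One-Direct against Pico (20 to 30) stayed within 1.5 times under all alternatives. The 2 calls between giant and control cells over both kits (psbC, psbZ) became 0 with no filter on low signals, with quantile normalisation and with the first technical array alone. They were 0 to 3 with single samples left out. With the replicate number as a block (replicate block) 1 remained, psbC, and psbZ was not called. The block left the Pico count at 0, One-Direct at 0, the difference between kits at 0 and the kit count at 24. Samples deviated most like the same-numbered sample in 8 of 18 comparisons. Over all settings psbC lost its call in 10 of 22 and psbZ in 13 of 22 (adjusted p from 0.0128 to 0.257 and from 0.0183 to 0.0934). The psbK gene was called in 4. The Pico count of 0 became 2 with only Pico samples in the fit, 6 with sample quality weights, and 0 to 2 with single samples left out. It was 2 without the first sample of both One-Direct groups, an alternative chosen after seeing the data. Medians over members moved with the scaling. Quantile normalisation gave 0.025 for both kits, 0.11 for One-Direct, 0.44 for One-Direct against Pico and 0.11 for the difference between kits. Median centring gave -0.41, -0.80, -0.39 and -0.82. Among single genes over both kits, quantile normalisation turned the sign of atpH (0.11), petB (0.059), rpl36 (0.25), ndhE (0.073), clpP (0.175), psbF (0.026), rpl20 (0.087) and ycf4 (0.083), and that of psbF between kits (0.016). The sign of ycf3 turned with median centring (-0.13), without the first One-Direct samples (-0.005) and without giant Pico sample 1, and that of ycf4 without giant Pico sample 3. With single samples left out, ycf3 ranged from -0.025 to 0.203 and ycf4 from -0.173 to 0.051. The cause was not tested for these changes. Median 95% half-widths of 0.76 within a kit limit what could be called there.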

Other observations

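Another 8 probe sets are listed with 2 copies of a plastid gene, because these genes lie in the inverted repeat of the plastid genome. They were left out of all counts. They are rpl2, rpl23, rps7, ycf1, ycf2, ndhB and a pair for rps12, and all 8 were tested. None was called between giant and control cells over both kits or in either kit. In Pico, ycf2, one of the longest plastid reading frames, was at 9.62 ± 0.20 (SD, n = 3) in control samples and 10.36 ± 0.20 in giant cell samples, a difference of 0.74 (limma adjusted p = 0.185). In One-Direct it was at 10.93 ± 0.25 and 10.91 ± 0.17, a difference of -0.02 (adjusted p = 0.982). Both rps12 probe sets had positive Pico differences (0.62 and 0.36), and with One-Direct 0.00 and -0.56. Between the kits, rpl23 (1.03, adjusted p = 0.00844) and ycf2 (0.92, adjusted p = 0.0062) were called higher with One-Direct, against 18.0% of all tested probe sets. Ribosomal protein gene rps7 (-0.71, adjusted p = 0.039) and 1 of the rps12 probe sets (-0.79, adjusted p = 0.0281) were called lower, against 16.3% of all. As among the single-copy genes, members of the ribosome thus stood on both sides of the kit comparison. The rpl23 gene is of the large subunit, whose 7 tested single-copy genes were all below 0 in the main fit.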
